A study of Homo sapiens with 12 samples.

Results

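The cytosolic ribosomal protein genes were followed across 12 libraries of human pancreatic cancer cells. A gene was a member when GENCODE called it protein-coding and its symbol was RPL or RPS plus a number, with an optional A or X, or RPLP0, RPLP1 or RPLP2. This gave 76 genes, 30 of the small and 46 of the large ribosomal subunit, of 27309 genes with a value in the table. RNA was sequenced from AsPC-1 and PANC-1, established lines of human pancreatic carcinoma, the first from ascites and the second from a primary tumour of the pancreatic duct. Each line was mock treated, made to overexpress TAp63 or made to overexpress deltaNp63, with 2 biological replicates in each of the 6 groups. TAp63 and deltaNp63 are the forms of the transcription factor p63 with and without the full N-terminal activation domain. The vector, the time after transfer of the construct and whether single clones were used are not given in the sources used here, so the mock groups stand as labelled.

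The unit was TPM, a length-corrected share of each library, so the values of a library sum to 1000000 and its sequencing depth is unknown. In bulk RNA a share cannot tell fewer transcripts per cell from more RNA of other genes, nor fewer cells of a kind from less RNA per cell. TP63 was at 0.96 ± 0.20 TPM in AsPC-1 mock, 136 ± 48 with TAp63 and 298 ± 74 with deltaNp63 (SD, n = 2 here and below). In PANC-1 it was at 0.072 ± 0.067, 333 ± 13 and 1001 ± 263 TPM, so TP63 was higher in each construct library than in every mock library. This summed level does not tell the 2 forms apart. Keratin KRT8, an epithelial marker, ran from 2034 to 3738 TPM in AsPC-1 and from 1566 to 1762 in PANC-1. The low end in AsPC-1 was deltaNp63 replicate 1. EPCAM was lower in PANC-1 (42.6 to 49.5 TPM) than in AsPC-1 (1256 to 1410 TPM). The leukocyte and endothelial markers measured, PTPRC, CD3E, CD14 and CDH5, stayed at or below 0.49 TPM in all 12 libraries. Of 3 fibroblast markers, the collagen gene COL1A1 was at 80.8 to 111 TPM in PANC-1 and 0.0841 to 0.383 in AsPC-1, while DCN and PDGFRB stayed below 1 TPM in all 12.

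Ribosomal proteins wrap the ribosomal RNA of the small subunit, which reads the mRNA, and of the large subunit, which joins amino acids. Their mRNAs are among the most abundant in dividing cells, and most begin with a run of pyrimidines, the 5′ terminal oligopyrimidine (TOP) motif, through which mTOR and the RNA-binding protein LARP1 set how much of them is translated and kept. Some members act outside the ribosome: RPL5 and RPL11 bind MDM2 and so tie ribosome assembly to p53.

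The TOP motif could be read at the annotated starts. RefSeq promoters (GRCh38.p14, 250 bases before and 50 after each gene's start) were matched for 61 of the 76 members, and 15 had no match. A tract, counted as a C followed by at least 4 further C or T within 5 bases before to 10 after the start, was present in 53 of the 61 (86.9%), against 27% of all 27305 promoters. Placed exactly on the first base, it was present in 41 of 61 (67.2%), against 4.04% of all promoters. The tracts were 5 to 22 bases long, with a median of 10. The windows below run from 8 bases before the start to 15 after its first base, with the tract in capitals, for members the later results turn on.
RPS16 (chr19:39435934-39435957, minus strand): ctagCTTTCCTTTTCCggttgcgg
RPS24 (chr10:78033855-78033878, plus strand): tcgtggttCTCTTTTCCTCCTTgg
RPS6 (chr9:19380221-19380244, minus strand): agttggCCCTCTTTTCCgtggcgc
RPS3A (chr4:151099620-151099643, plus strand): cacttccgCCCTTTTggctctctg
RPS14 (chr5:150449724-150449747, minus strand): ctcccaCTCTCTCTTTCCggtgtg
RPL24 (chr3:101686703-101686726, minus strand): gattCTCTCTTTCTTTTCgccatc
RPL34 (chr4:108620568-108620591, plus strand): tttttCTTCCTCTTCCggggacgt
RPL9 (chr4:39458907-39458930, minus strand): atgacgacagacgttCTTTCTTTg
RPL13A (chr19:49487600-49487623, plus strand): acctCCTCCTTTTCCaagcggctg
RPL6 (chr12:112411427-112411450, minus strand): atcctcagtgaatcagaaccagaa
The RPL6 window, 1 of the 8 without a tract, holds none at the start that RefSeq annotates.

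Other promoter motifs, searched on both strands over the same 300 bases, were less shared. CCGGAAG, the core of ETS family sites, was in 21 of 61 members (34.4%) and 10.7% of all promoters. AAGATGGC, a YY1 site, was in 6 (9.84%) against 3.03%, and it can overlap the start codon of genes with short leaders. The consensus half-site of the p53 family, to which p63 belongs, was in 8 members (13.1%) and 6.54% of all promoters. The E-box CACGTG was in 3 (4.92%) against 7.43%, TATAAA in 5 (8.2%) against 12%, and CCAAT in 20 (32.8%) against 35.7%. These counts describe letters only.

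The 76 genes held 13.7% and 14.6% of all TPM in the AsPC-1 mock libraries, 14.9% and 15.3% with TAp63, and 15.7% and 16.1% with deltaNp63. In PANC-1 they held 13.7% and 13.9% in mock, 13.4% and 14.1% with TAp63, and 13.4% and 14.7% with deltaNp63. In AsPC-1 both libraries of each construct lay above both mock libraries. In PANC-1 the libraries of each construct lay outside the mock pair, on opposite sides. The split between subunits differed by line. Large-subunit genes held 8.33% to 9.43% in AsPC-1 and 6.64% to 7.11% in PANC-1, and small-subunit genes held 5.38% to 6.62% and 6.70% to 7.56%. RPS16 is a small-subunit protein near the decoding site, and without it the members held 13.5% to 15.8% in AsPC-1 and 10.8% to 11.7% in PANC-1.

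**Figure D1:**
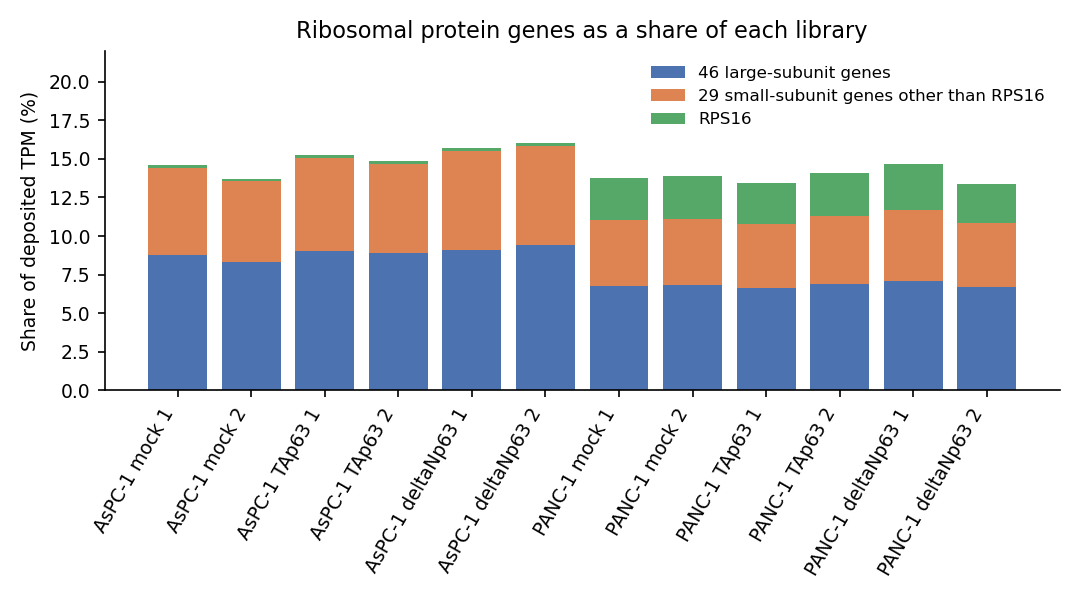
Stacked bars give the share of deposited TPM (%, y axis from 0) held by large-subunit genes, small-subunit genes other than RPS16, and RPS16, in each of the 12 libraries (x axis). The RPS16 segment is a thin line in the 6 AsPC-1 libraries and a wide band in the 6 PANC-1 libraries.

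Levels varied widely among genes whose products are mostly needed in equal numbers. The median member had 1610 TPM over the 12 libraries, with quartiles at 1090 and 2132. RPS16 ranked highest (mean 14672 TPM), followed by RPS18 (4505), of the small subunit's head, and RPL39 (4487), a very short protein of the exit tunnel. RPS18, RPL39, RPS24 (4448) and RPS2 (4372) had ranges across libraries that overlapped, so their order is not resolved. Among the lowest were RPS26 (25.6 TPM) and RPS27 (30.6). Both are held only in part: for 8 members, among them RPS26, RPS27, RPL26, RPS7, RPS10, RPL35A and RPL11, the GENCODE canonical transcript was not matched to a row and was not analysed here. The 6 lowest members are all among these 8, and their values describe minor transcripts. Of 796 annotated transcripts of members, 572 were in the table. In each library 9.46% to 10.4% of TPM lay in 13510 rows whose identifiers had no match, the highest with a mean of 19508 TPM, and these could not be given to any gene.

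Reads of members and of their pseudogenes are hard to separate. GENCODE names 1514 such pseudogenes, and 658 had a value. Pseudogenes held 64.6% of the summed TPM of RPL22 and its copies, 62.1% for RPL23A, 33.8% for RPS26 and 32.1% for RPL36A, so these genes' levels are uncertain. RPL21, the lowest member with its canonical transcript in the table, had 132 TPM, and RPL23 had 181 TPM. In addition 36 members overlap another annotated gene, and 27 carry 58 small nucleolar RNAs in their introns.

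Across the 68 members with a canonical transcript, levels in the 2 mock lines had a Pearson correlation of 0.75 over genes (Spearman 0.74), and 0.85 without RPS16. These are descriptions over genes that share libraries.

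**Figure D2:**
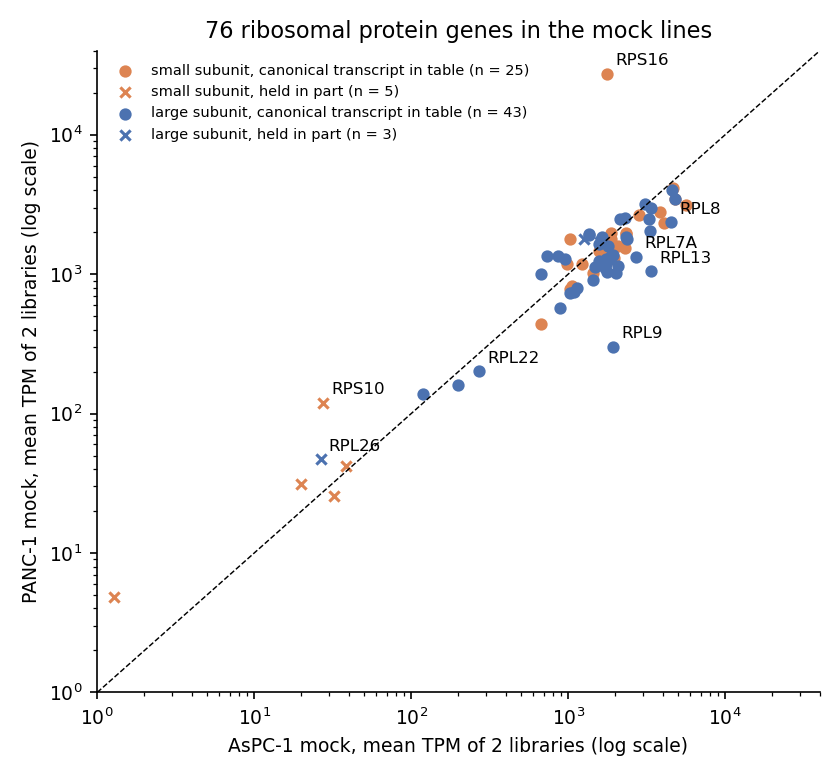
Each point is 1 of the 76 genes, with its mean TPM in AsPC-1 mock on the x axis and in PANC-1 mock on the y axis (both log scales, 2 libraries each), coloured by subunit, and crosses mark the 8 genes held in part. RPS16 stands far above the dashed line of equal level and RPL9 and RPL13 below it, while the 6 lowest points are genes held in part.

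The first comparison set the mock groups of the 2 lines against each other. Most ribosomal protein genes were lower in PANC-1 than in AsPC-1: with limma on log2(TPM + 1) and an adjusted p under 0.05 over 14767 genes, 46 of 76 were lower and 15 higher. Over all tested genes 27.9% were lower and 44.6% higher. The members' median log2 difference was −0.36, beside 0.24 for all genes. Groups did not overlap for 51 lower and 17 higher members, against 34.7% and 52.9% of all genes. Both subunits took part: 29 of 46 large-subunit genes were lower and 10 higher, and 17 of 30 small-subunit genes were lower and 5 higher. The members' median was −0.54 on a scale centred on each library's median gene and −0.21 after quantile normalization, where 39 were lower and 20 higher. The shares of all genes above are those of the deposited scale. All of this compares 2 lines and says nothing of other tumours.

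RPS16 departed most. Its AsPC-1 mock libraries had 1671 and 1883 TPM and its PANC-1 mock libraries 27078 and 27644, a log2 difference of 3.95 ± 0.08 (SE, limma adjusted p = 9.37e-11). Over all libraries AsPC-1 ran from 1671 to 2251 TPM and PANC-1 from 25423 to 29731, with no overlap. RPS16 lies at chr19:39433137-39435949 (GRCh38, minus strand).

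Its chromosomal neighbours differed in the same direction. Of 49 other coding genes tested within 1000 kb on either side, 43 were higher in PANC-1 mock and 2 lower by the same test, with a median log2 difference of 3.42, beside 0.27 for the 12593 coding genes tested outside the family. These included FBL, the fibrillarin that methylates ribosomal RNA, which rose by 4.35 (adjusted p = 5.36e-11), from 211 ± 7.9 to 4325 ± 115 TPM. MRPS12, a protein of the mitochondrial small subunit, rose by 3.07 (adjusted p = 3.23e-09). EIF3K, a subunit of the initiation factor eIF3, rose by 3.54, the proteasome ATPase PSMC4 by 4.93, and the kinase AKT2 by 4.85 (adjusted p = 1.54e-10, 1.5e-11 and 7.97e-11). LGALS4, an epithelial galectin, fell by 7.96 (adjusted p = 2.1e-10).

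**Figure D3:**
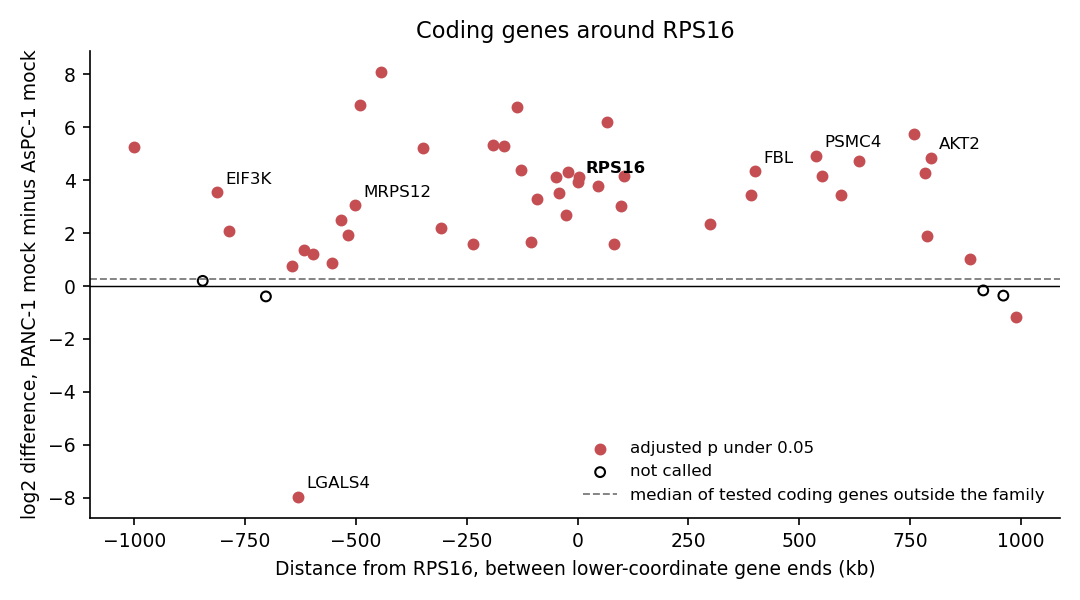
Each point is a coding gene tested within 1000 kb of RPS16, placed by its distance in kb (x axis) and its log2 difference between PANC-1 mock and AsPC-1 mock (y axis), filled where the adjusted p was under 0.05. Most points lie well above the dashed median of tested coding genes outside the family (0.27), and LGALS4 lies far below it.

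The difference of a member could be set beside that of its surroundings. Over the 76 members, the difference between the lines correlated with the median difference of coding neighbours within 2 Mb (Pearson 0.59, Spearman 0.60; without RPS16, 0.54 and 0.59), given as a description since close members share neighbours. RPL38, a small protein on the large subunit's surface, rose by 0.89 (749 and 714 TPM in AsPC-1 mock, 1345 and 1365 in PANC-1 mock), where its 55 neighbours had a median of 0.80. RPL17, at the exit of the nascent chain tunnel, rose by 0.66 and RPL23A, which docks factors at that exit, by 0.59, with neighbour medians of 0.90 and 0.85. Adjusted p-values for these 3 ran from 1.43e-06 to 9.74e-05. RPL23A is the least certain of them, since its pseudogenes held 62.1% of the summed TPM. Those pseudogenes had 1054 and 1137 TPM in AsPC-1 mock and 1551 and 1649 in PANC-1 mock. RPS10, RPL26 and RPS26 rose by 2.09, 0.80 and 0.67, but all 3 are held in part. RPS10, of the small subunit's head, had 27.3 and 27.4 TPM in AsPC-1 mock and 118 and 121 in PANC-1 mock.

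The falls were led by RPL9. It forms part of the stalk base of the large subunit, and its mock libraries had 2083 and 1793 TPM in AsPC-1 and 304 and 298 TPM in PANC-1, a log2 difference of −2.68 ± 0.14 (adjusted p = 4.85e-08). Its 22 neighbours had a median of −0.26. RPL13, a large-subunit protein, had 3239 and 3481 TPM in AsPC-1 mock and 1034 and 1060 in PANC-1 mock, a difference of −1.68 ± 0.08 (adjusted p = 4.07e-08). Its 36 neighbours had a median of 0.20, near the 0.27 of the 12593 coding genes tested outside the family. RPL13 was thus lower while its surroundings were close to that median. Most members that were lower in PANC-1 mock likewise had neighbours with a median above 0, though not always above 0.27. The neighbour medians were 0.47 for RPS18, 0.18 for RPL5 and 0.27 for RPL3. RPL8, RPL6 and RPS2 were lower among neighbours with a median below 0.

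RPL7A, RPL13A, RPL8, RPL6, RPS2 and RPS21 fell by 1.02, 0.97, 0.94, 0.85, 0.85 and 0.81 on the log2 scale (adjusted p from 3.63e-07 to 7.55e-05). RPS21 and RPS2 belong to the small subunit and the other 4 to the large one. RPL8 on chromosome 8 was joined by the other 3 members there: all 4 lay between −0.94 and −0.52, where the 424 other coding genes of that chromosome had a median of −0.57. The median over all 76 members was −0.36. Coding neighbours within 2 Mb had medians of −0.55 for RPL8 and −0.33 for RPS20, but 0.49 for RPL30 and 0.23 for RPL7. On chromosome 19, which carries 12 members, they ran from −0.97 to 3.95, with a median of −0.47 beside 0.46 for the other coding genes.

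Members often used as reference genes differed between the lines on the deposited scale. RPL13A had 2086 and 1918 TPM in AsPC-1 mock and 1027 and 1012 in PANC-1 mock. RPS18 was lower by 0.47 (adjusted p = 0.00166) and RPLP0, the base of the stalk that recruits elongation factors, by 0.19 (limma adjusted p = 0.0282). After quantile normalization RPL13A still passed (−0.83, limma adjusted p = 1.28e-05), but RPS18 (−0.20, adjusted p = 0.134) and RPLP0 (−0.03, adjusted p = 0.693) no longer did, and under the other 4 scalings all 3 remained lower. RPL5 was lower by 0.49 (adjusted p = 0.000325), while its partner RPL11, held in part, differed by 0.08 with a 95% interval from −0.05 to 0.22 (adjusted p = 0.251).

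RPS24 differed between the lines in splicing more than in level, and here the sequence shows the change. RPS24 binds at the small subunit's body, and its last coding bases depend on small alternative exons. RPS24-201 includes a 3-base exon at chr10:78037439-78037441 (GENCODE v44, GRCh38), which is coding and comes directly before the stop codon of the next exon. RPS24-202 skips it. RPS24-205 includes it and an 18-base exon at chr10:78037965-78037982, in which its own stop codon lies. The transcript sequences across the junction are given with the included exons in capitals.
RPS24-202: gctggcaaaaagtgagctggagat
RPS24-201: gctggcaaaaagAAGtgagctggagat
RPS24-205: aaagAAGAAATGAAGTGTCTAGCAGtgag

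In AsPC-1 mock, 84.6% and 84.6% of RPS24 TPM was RPS24-202 and 4.08% and 3.70% was RPS24-201. In PANC-1 mock, RPS24-202 held 38.7% and 40.6% and RPS24-201 held 57.1% and 54.7%. Over the 6 libraries of a line RPS24-201 ran from 3.56% to 4.23% in AsPC-1 and from 50.6% to 57.1% in PANC-1, with no overlap and no library apart. RPS24-205 held 7.97% to 11.1% in AsPC-1 and 0.741% to 7.21% in PANC-1, where deltaNp63 replicate 1 was highest. The summed level moved less, from 4824 and 4511 TPM in AsPC-1 mock to 4214 and 4030 in PANC-1 mock. Shares of transcripts that differ by 3 bases depend on reads across that junction, and without counts their precision is unknown.

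**Figure D4:**
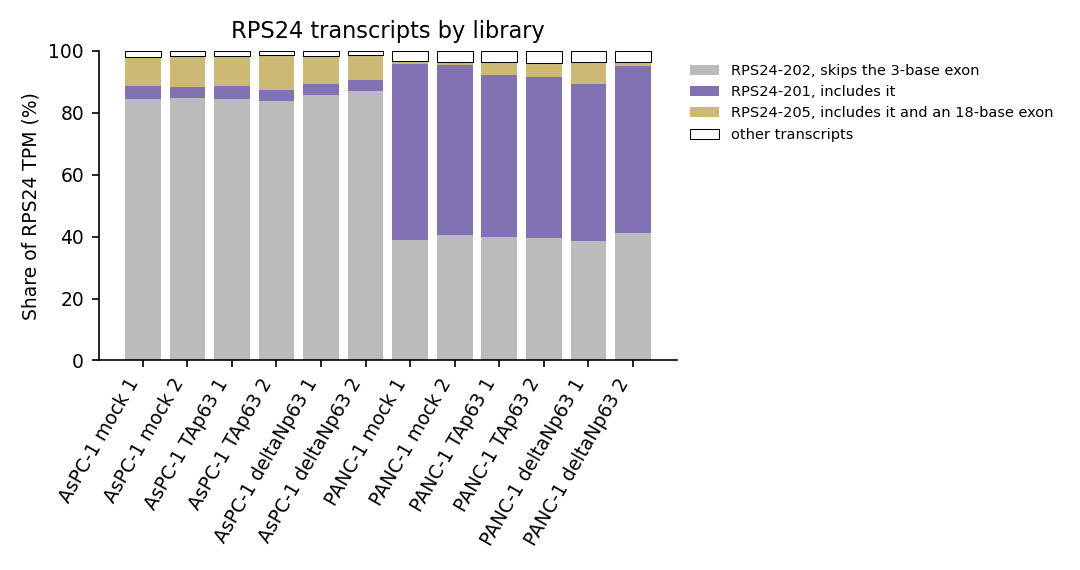
Stacked bars give the share of RPS24 TPM (%, y axis) held by its 3 main transcripts and by all others in each of the 12 libraries (x axis). RPS24-202 fills over 80% of every AsPC-1 bar, and RPS24-201 fills just over 50% of every PANC-1 bar, whichever construct the cells carried.

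Of the 68 members with a canonical transcript in the table, 9 had a transcript whose share differed by at least 10 percentage points between the mock lines, and 0 had one between a construct and its mock. The retained-intron transcript RPL13-213 held 27.3% to 33.4% of RPL13 in AsPC-1 and 5.67% to 7.85% in PANC-1. With coding transcripts alone RPL13 was still lower in PANC-1, by 1.42 on the log2 scale. Over all members, protein-coding transcripts held 87.2% to 88.0% of member TPM in AsPC-1 and 89.7% to 90.0% in PANC-1, and retained introns 6.02% to 6.73% and 5.10% to 5.36%.

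The next comparison asked what deltaNp63 changed in AsPC-1. There 12 members were higher and 0 lower at adjusted p under 0.05, against 0.637% of all genes higher and 6.51% lower. At an unadjusted p under 0.05 the counts were 35 and 0, against 4.69% of all genes higher and 25% lower. Members had a median log2 change of 0.15 and all genes one of −0.12. Groups did not overlap for 46 higher and 3 lower members, against 11.1% and 41.1% of all genes, and 63 of 76 members lay above 0, against 30.8% of all genes. Members also moved together between replicates of 1 group. Those higher in replicate 1 ran from 14 of 76 in PANC-1 TAp63 to 63 of 76 in AsPC-1 mock (median differences −0.06 and 0.09). A count as one-sided as 63 of 76 thus also arose without a difference of construct. The 12 were RPS26, RPS3A, RPL9, RPS6, RPS15A, RPS14, RPL24, RPL5, RPL34, RPS16, RPS20 and RPL10A, 7 of 30 small-subunit and 5 of 46 large-subunit genes. The subunit medians were 0.23 and 0.08, and that difference was not tested.

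The changes were small. RPS3A, which sits at the mRNA exit of the small subunit, had 1928 and 1600 TPM in mock and 2816 and 2513 with deltaNp63, a log2 change of 0.60 ± 0.13 (SE, limma adjusted p = 0.0366). RPS6, the ribosomal protein phosphorylated downstream of mTOR, had 1105 and 966 TPM in mock and 1483 and 1353 with deltaNp63, a change of 0.46 ± 0.10 (adjusted p = 0.0366). RPL9 had 2083 and 1793 TPM in mock and 3089 and 2539 with deltaNp63, a change of 0.53 ± 0.14 (adjusted p = 0.048). In all 3 genes both deltaNp63 libraries were above both mock libraries, and mock replicate 2 was the lowest.

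RPS15A, a small-subunit body protein, had 3032 and 2625 TPM in mock and 3904 and 3671 with deltaNp63, a change of 0.42 ± 0.09 (adjusted p = 0.0352). RPL5, the MDM2 binder, had 1079 and 969 TPM in mock and 1301 and 1288 with deltaNp63, a change of 0.34 ± 0.08 (adjusted p = 0.0422). RPS26, held in part, had 23.8 and 15.9 TPM in mock and 30.2 and 37.0 with deltaNp63, the greatest change of the 12 (0.75 ± 0.18, adjusted p = 0.0425). For RPL11, also held in part, the change was 0.04, with a 95% interval from −0.09 to 0.18. Over the 12 the changes ran from 0.26 to 0.75 and the adjusted p-values from 0.0352 to 0.0482, just inside the threshold. RPS18, just outside it, changed by 0.35 (adjusted p = 0.0618), and 10 members had an adjusted p from 0.05 to 0.1.

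The count of 12 rests on settings and on single libraries. It fell to 0 without the trend of variance on level, without the filter on low genes, and in fits of fewer groups, and rose to 31 on the median-centred scale. The shares of all genes given above, 0.637% higher and 6.51% lower, belong to the fit that gave 12. Leaving out 1 library gave 0 without mock replicate 2, deltaNp63 replicate 1, or any one of the 4 PANC-1 mock and TAp63 libraries. It gave 1 without mock replicate 1, 4 without either PANC-1 deltaNp63 library and 15 without deltaNp63 replicate 2. Under every one of these settings 0 members were called lower, and the members' median stayed above 0, between 0.03 and 0.36.

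Base composition moved with the change. Over the 76 members the log2 change with deltaNp63 in AsPC-1 had a Pearson correlation of −0.38 with the GC content of the canonical transcript, and −0.31 over 12669 coding genes, given as descriptions. Between the 2 deltaNp63 replicates of AsPC-1 the same correlations were −0.47 and −0.35. The 12 genes had a median GC content of 46.8%, the 13 members below 0 one of 54.3%, and all members one of 47.6%. With the GC trend of each library removed, 11 members were higher and 0 lower, 9 of them among the 12.

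With TAp63 in AsPC-1 0 members passed in either direction, against 0.0271% of genes higher and 0.609% lower. At an unadjusted p under 0.05, 7 were higher and 2 lower by limma, against 2.37% and 12.8% of all genes. The members' median was 0.07 and that of all genes −0.08. As with deltaNp63, 63 of 76 members lay above 0, where the upper quartile of all genes was 0.04. This comparison shares its mock libraries with that of deltaNp63. Between those 2 mock libraries 63 of 76 members were likewise higher in replicate 1, with a median difference of 0.09, more than the 0.07 with TAp63. The 12 genes above changed by 0.07 to 0.39 with TAp63. RPS3A had 2627 and 2026 TPM with TAp63, a change of 0.39 with a 95% interval from 0.10 to 0.69 (limma adjusted p = 0.21). RPL26 and RPS10, both held in part, changed by −0.25 and −0.23 (adjusted p = 0.272 and 0.202). Set directly against each other, TAp63 and deltaNp63 differed in 0 members (0% of genes higher and 0.0203% lower with TAp63), with a median of −0.07. At an unadjusted p under 0.05 by limma 0 were higher and 10 lower, against 5.55% and 2.37% of all genes. Without deltaNp63 replicate 2 of AsPC-1 the count was 2.

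**Figure D5:**
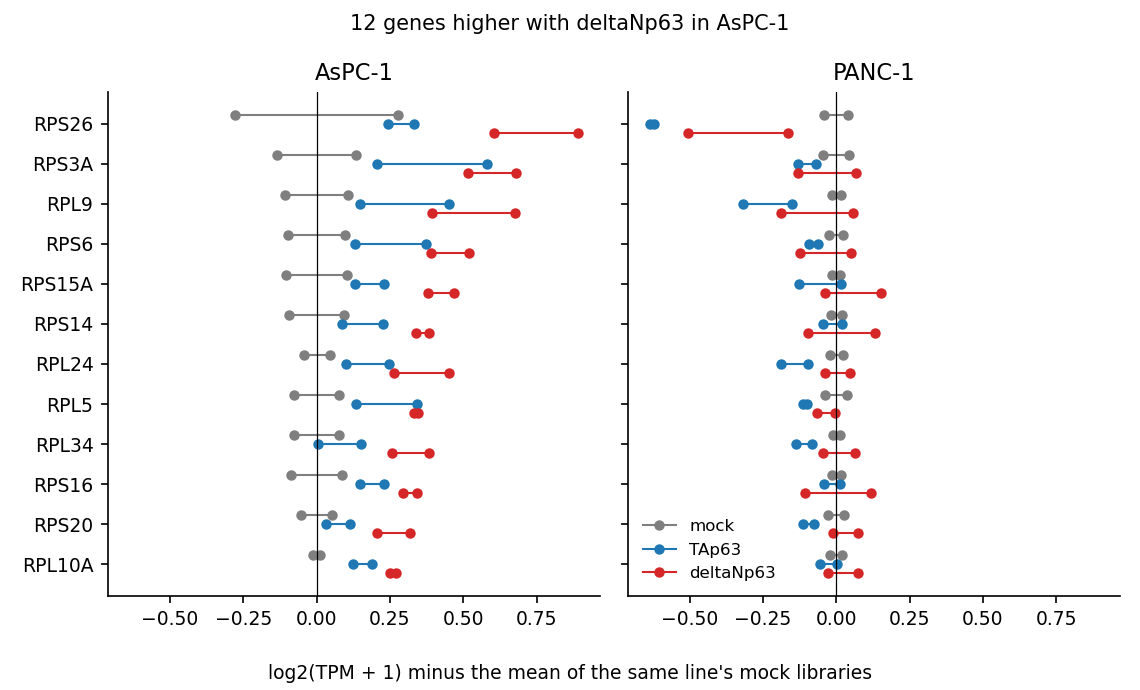
For the 12 genes called with deltaNp63 in AsPC-1, points give log2(TPM + 1) of each library minus the mean of the same line's mock libraries (x axis), joined within a group, for AsPC-1 on the left and PANC-1 on the right. In AsPC-1 both deltaNp63 points lie to the right of both mock points for each gene, and in PANC-1 the deltaNp63 and mock points overlap for most genes, RPS26 lying to the left.

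In PANC-1 neither construct moved a member past the threshold. With deltaNp63 the counts were 0 and 0, against 0.0271% of genes higher and 0.0135% lower, and 0 members passed an unadjusted p under 0.05 by limma, against 1.25% of genes higher and 1.08% lower. With TAp63 they were 0 and 0, against 0.00677% higher and 0% lower, and 1 member was lower at an unadjusted p under 0.05 (1.76% of genes higher and 1.65% lower). TAp63 against deltaNp63 gave 0 and 0, against 0.0135% in each direction, and 0 at an unadjusted p under 0.05 (1.65% and 1.31% of genes). Members' medians were 0.02 with deltaNp63, −0.01 with TAp63 and −0.03 between them.

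RPS26, held in part, had 32.4 and 30.6 TPM in PANC-1 mock, 20.1 and 19.9 with TAp63, and 21.9 and 28.0 with deltaNp63, changes of −0.63 and −0.34 (limma adjusted p = 1 for both). RPS6 had 757 and 732 TPM in mock, 698 and 712 with TAp63, and 770 and 683 with deltaNp63, so its groups overlapped for deltaNp63. RPS3A had 1412 and 1327 TPM in mock and 1434 and 1251 with deltaNp63, which also overlapped. RPS16, at its high PANC-1 level, had 29731 and 25423 TPM with deltaNp63, either side of its mock pair. The 12 genes called in AsPC-1 had changes from −0.34 to 0.06 with deltaNp63 in PANC-1 (median 0.01), and from −0.63 to −0.01 with TAp63 (median −0.10). The median SE of a member's change was 0.08.

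Whether the effect differed between the lines was tested as an interaction, PANC-1 minus AsPC-1. For deltaNp63, 0 members passed, against 0.562% of genes higher and 0.0203% lower, while 18 were lower and 0 higher at an unadjusted p under 0.05 by limma, against 2.75% of genes lower and 13.7% higher. The members' median was −0.10, beside 0.11 for all genes. RPS26 differed most (−1.08, 95% interval −1.65 to −0.51, adjusted p = 0.142), then RPS3A (−0.63, interval −1.05 to −0.21, adjusted p = 0.212). For TAp63, 0 members passed, against 0.0745% higher and 0% lower, with a median of −0.08. By limma 6 were lower and 0 higher at an unadjusted p under 0.05, against 1.92% and 8.51% of genes. A difference between the lines in the response of ribosomal protein genes was therefore not established by limma. Without AsPC-1 deltaNp63 replicate 2, 6 members passed for deltaNp63.

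Related genes place these values, and shares over all tested genes stand beside every list below. Between the mock lines 44.6% of all genes were higher and 27.9% lower (median 0.24). With deltaNp63 in AsPC-1 0.637% were higher and 6.51% lower, or 4.69% and 25% at an unadjusted p under 0.05 by limma. Of 19 tested translation factors and other TOP mRNA genes, 3 were higher and 0 lower with deltaNp63 in AsPC-1 (median 0.06, all genes −0.12). TPT1, a TOP mRNA protein of cell growth, rose by 0.48, EEF1B2, an exchange factor of elongation, by 0.37 and EEF1A1, the carrier of aminoacyl-tRNA, by 0.25 (limma adjusted p = 0.039, 0.0293 and 0.032). Under quantile normalization, without the variance trend and without the filter on low genes 0 of the 19 passed, and 3 were higher after median centring. EEF1B2 had 1443 and 1296 TPM in mock and 1782 and 1753 with deltaNp63, with no overlap. Between the mock lines 3 of the 19 were higher and 14 lower in PANC-1 (median −0.53). SNHG1 and GAS5, non-coding hosts of small nucleolar RNAs, fell by 2.49 and 1.16, TPT1 by 1.01, and EIF3E, a subunit of eIF3, by 0.80 (adjusted p from 1.2e-09 to 2.4e-05).

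Of 29 tested biogenesis and nucleolar factors, 0 rose and 7 fell with deltaNp63 in AsPC-1 (median −0.17), while all tested genes had a median of −0.12. The counts at an unadjusted p under 0.05 by limma were 1 and 10, against 4.69% and 25% of all genes. The falls rest on the scaling: 0 passed in either direction after quantile normalization or median centring, where the list's median was −0.09 and 0.04, and 2 fell after rescaling to the sum of genes outside the family. Without the variance trend 3 fell, and without the filter on low genes 1 did. With the GC trend removed 0 rose and 7 fell (median −0.23), and with median centring added 1 rose and 1 fell. MYBBP1A, a nucleolar regulator, fell by 0.95, POLR1B, the second subunit of RNA polymerase I, by 0.75, TSR1, a small-subunit assembly factor, by 0.60 and RRS1, which acts in large-subunit assembly, by 0.55 (limma adjusted p from 0.0252 to 0.0413). RRS1 had 18.1 and 18.7 TPM in mock and 11.8 and 12.7 with deltaNp63. Between the mock lines 18 of the 29 were higher and 3 lower in PANC-1 (median 0.50), led by FBL, RRS1 (1.61), NOP2 (1.49), a ribosomal RNA methyltransferase, and MYBBP1A (1.40).

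Of 18 regulators of TOP mRNAs and growth, 0 rose and 2 fell with deltaNp63 in AsPC-1 (median −0.20). By limma 1 was higher and 6 lower at an unadjusted p under 0.05, and after quantile normalization or median centring 1 fell, with list medians of −0.03 and 0.01. Without the filter on low genes 0 passed. LARP1, which binds TOP motifs, had 87.3 and 87.8 TPM in mock and 50.9 and 61.1 with deltaNp63, a change of −0.64 ± 0.11 (limma adjusted p = 0.0214). ZBTB7A, a transcriptional repressor, fell by 0.63 (adjusted p = 0.0395). Between the mock lines 6 were higher and 6 lower in PANC-1 (median −0.01), against 44.6% and 27.9% of all genes (median 0.24). EIF4EBP1, an mTOR-regulated inhibitor of translation, fell by 2.29 and MXI1, a MYC antagonist, by 1.11. LARP4, which binds poly(A) tails, rose by 1.14 and the kinase MTOR itself by 0.95 (limma adjusted p from 2.2e-07 to 3.2e-05 over these falls and rises).

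Mitochondrial ribosomal proteins, which serve the separate ribosome of that organelle, were 76 of the tested genes. Of these, 46 were higher and 13 lower in PANC-1 mock (median 0.37), against 44.6% and 27.9% of all genes (median 0.24). With deltaNp63 in AsPC-1 0 rose and 1 fell (median −0.08), against 0.637% and 6.51% of all genes (median −0.12). The fall was that of MRPL34, a large-subunit protein (by 0.71, limma adjusted p = 0.046). At an unadjusted p under 0.05 by limma, 5 were higher and 16 lower in that contrast, against 4.69% and 25% of all genes. The 1 call was lost under quantile normalization, without the variance trend and without the filter on low genes, and after median centring 1 was higher and 0 lower, with a median of 0.13. Between the lines the higher ones were still the more numerous after centring (30 against 20). After MRPS12, the greatest rises between the lines were MRPL27 (1.99), MRPL17 (1.46) and MRPL36 (1.29), all of the large subunit. The 4 cytosolic ribosomal genes outside the naming rule were higher in 2 cases in PANC-1 mock (median 0.12, all genes 0.24). Among them FAU, which encodes a small-subunit protein fused to a ubiquitin-like one, was higher by 0.19 (limma adjusted p = 0.0259). After median centring 0 of the 4 were higher and 1 was lower. With deltaNp63 in AsPC-1 0 of the 4 passed (median 0.05; 2 higher and 0 lower at an unadjusted p under 0.05 by limma).

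Paralogs of members were tested in 6 of 8 cases. Of these 6, 4 were higher and 1 lower in PANC-1 mock (median 0.45), against 44.6% and 27.9% of all genes (median 0.24). RPL39L, the paralog of RPL39 known best from testis, had 0.09 and 0 TPM in AsPC-1 mock and 93.5 and 93.8 in PANC-1 mock, a fitted log2 difference of 6.50 on the log2(TPM + 1) scale (limma adjusted p = 7.3e-11). RPL39 itself had 4974 and 4154 TPM in AsPC-1 mock and 4129 and 3947 in PANC-1 mock. RPL36AL and RPL7L1 rose by 0.60 and 0.59, and RPL22L1 fell by 0.40 (adjusted p from 1.4e-05 to 0.0075). With deltaNp63 in AsPC-1 0 of the 6 passed (median 0.13; 1 higher and 0 lower at an unadjusted p under 0.05 by limma). Of 66 tested ribosomal protein pseudogenes, 16 were higher and 9 lower in PANC-1 mock (median 0.06), against the same shares of all genes. With deltaNp63 in AsPC-1 3 were higher and 0 lower (median 0.01), against 0.637% and 6.51% of all genes. With TAp63 in AsPC-1, and with either construct in PANC-1, 0 of the 218 genes of all 7 lists passed by limma. At an unadjusted p under 0.05 by limma, 6 were higher and 28 lower with TAp63 in AsPC-1, against 2.37% and 12.8% of all genes. The counts were 0 and 6 with TAp63 in PANC-1 (1.76% and 1.65% of all genes). They were 3 and 1 with deltaNp63 there (1.25% and 1.08%).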

How the data were processed

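The members and gene lists were chosen with earlier results of these data known. The authors deposited 1 table of 153329 transcripts with values in TPM for 12 libraries; the unit was read from the values, which sum to 1000000 per library. RNA came from a column kit and libraries from a stranded mRNA kit, per the labels' protocols; aligner, quantifier and genome build are not given in the sources used here. Transcript identifiers were matched to GENCODE v44 (91.2% of rows) and summed to genes. The filter kept genes reaching 1 TPM in 2 or more libraries (14767, all 76 members among them), and these were tested on log2(TPM + 1), with limma 3.58.1 (R 4.3.3), a mean per group over all 12 libraries (6 residual degrees of freedom), variance trend and Benjamini-Hochberg adjustment over all genes within each of 9 contrasts, two-sided, threshold 0.05. A pseudocount of 1 understates changes of low genes. The fit was tested on simulated data. Named members were called without overlap of groups, up to 8 each way between lines and 5 otherwise, or the 2 greatest changes each way where none passed, plus reference genes, MDM2 binders, genes with paralogs and RPS24. From other lists up to 4 called genes were named. Alternatives were other normalizations, filters, pseudocounts, groups in the fit, a replicate block, coding transcripts only and each library left out. Added after seeing the data were canonical-transcript members only and removal of a lowess trend (span 0.3) on GC content. Some genes and transcripts are not reported here.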

Additional observations from a re-analysis of the deposited data

How the results depend on the processing

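The limits are those of 2 libraries per group, an unknown depth and a scale of shares. Members called with deltaNp63 in AsPC-1 were higher under each setting that called any, and the baseline count of 61 stayed between 54 and 66. For deltaNp63 in AsPC-1, the count of 12 was 0 without the variance trend, without the low-value filter, with the groups compared alone and with the 6 libraries of the line, 3 after quantile normalization, 6 after rescaling to the sum of other genes, 7 with a pseudocount of 0.1, 31 after median centring and 40 after GC removal with centring. Leaving out 1 library gave 0 to 15. The cause was not tested, except that smaller fits have fewer residual degrees of freedom. The median of that contrast (0.15) was 0.0343 after quantile normalization, 0.36 after centring and 0.35 after GC removal with centring. The baseline median (−0.36) was −0.21, −0.54 and −0.55 under the same 3, and that of TAp63 in AsPC-1 (0.07) was 0.20 after centring and 0.21 with GC removal added. TAp63 against deltaNp63 in AsPC-1 moved from −0.07 to −0.16 with GC removal and centring, and its count ranged from 0 to 2 over left-out libraries. Medians near 0 in PANC-1 changed sign: TAp63 was 0.0152 after GC removal and −0.0409 to 0.0212 over left-out libraries (highest without TAp63 replicate 1), deltaNp63 was −0.0252 to 0.0728 (lowest without deltaNp63 replicate 1), and TAp63 against deltaNp63 was −0.0890 to 0.0125 (highest without the same library). The interaction medians moved to −0.22 (TAp63) and −0.29 (deltaNp63) after centring and to −0.21 and −0.32 with GC removal added. The deltaNp63 interaction count was 1 after GC removal with centring and 0 to 6 over left-out libraries. RPL36A between the lines (0.16) was −0.0174 after centring and −0.0345 with GC removal added, RPL10 (0.04) was −0.18 with the latter, and RPL3 and RPLP2 with deltaNp63 in AsPC-1 became 0.26 and 0.28 with it. The labels do not say that replicate numbers pair the samples, and with 2 numbers the data could not settle it: deviations of same-numbered libraries within a line correlated at −0.09 to 0.29 over all genes and at −0.20 to 0.88 over the members. With the number as a replicate block, 18 members were called with deltaNp63 in AsPC-1, 58 between the lines and 1, lower, in the deltaNp63 interaction. With shares over coding transcripts alone, the difference in RPS24-201 was 53.4 instead of 52.0 percentage points, and that of RPL13-214 was 0.449 instead of 12.9.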
